A study of Rattus norvegicus with 8 samples.

Results

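The cytosolic ribosomal proteins are the protein part of the ribosome. They were taken as every probe set whose only gene symbol on the platform begins with Rpl or Rps followed by a digit, or is Rplp0, Rplp1, Rplp2 or Rpsa, and the Rps6k kinases (14 probe sets) were left out. This gave 57 probe sets for 50 genes, of 31099 probe sets on the array. Of these, 38 probe sets (34 genes) belong to the large subunit and 19 (16 genes) to the small subunit. All 57 were among the 31042 probe sets tested, since no filter on low values was used. Rplp1, Rplp2, Rps27a, Rps14, Rps19 and Rpl10 had no probe set with a single symbol, and another 30 probe sets carried the symbols of several ribosomal protein genes and stayed outside the members. Rpl37-ps2 and Rps4x-ps1 have the symbols of pseudogenes.

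RNA of the kidney was hybridized to Affymetrix rat genome arrays, 1 rat to an array. The HP group was 4 male Wistar rats, 8 weeks old, fed for 24 days a high-phosphorus AIN-93G diet (1.2% phosphorus), and the control group was 4 male Wistar rats of the same age fed the AIN-93G diet with 0.3% phosphorus for the same time. In the HP diet KH2PO4 replaced corn starch, so potassium was added along with phosphorus. The 4 rats of each group were picked by the authors as average ones by urine volume and kidney phosphorus content, and the left kidneys were used. Both groups share the acclimatization on the control diet, and no gene was altered in either.

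A ribosome is built from a large subunit, which joins amino acids into a chain, and a small subunit, which reads the messenger RNA, and nearly all ribosomal proteins are needed in equal number in the finished particle. The genes of these proteins are among the most strongly expressed in every tissue, the kidney included. Their messenger RNAs begin with a C followed by a run of pyrimidines (C or T), the 5′ terminal oligopyrimidine (TOP) motif, through which the kinase mTOR and the RNA-binding protein LARP1 set how much of them is translated.

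The TOP run was looked for at the start sites that RefSeq gives on the rat build GRCr8, since it is the feature by which these genes are regulated together. Of the 50 genes, 43 matched the RefSeq promoter table (41 by gene ID and 2 by symbol), and the 7 others were Rpl23a, Rpl27, Rpl30, Rpl37-ps2, Rpl7, Rps29 and Rps4x-ps1. A C followed by at least 4 C or T stood exactly at the start in 12 of the 43 genes (27.9%), against 2.63% of the 33469 promoters in the table. A run of at least 8 C or T within 20 bases on either side of the start was present in 28 genes (65.1%), against 15.5% of all promoters. The letters CCGGAA on either strand, the core of the site of ETS factors, were found in the 300 bases from 250 before to 50 after the start in 17 genes (39.5%), against 15% of all promoters. The sequences below are 20 bases before the start and the first 10 of the transcript. They are given for Rpl39 and Rps16, the 2 members called higher in HP rats as deposited (background 2.95% of all probe sets). Both calls were lost in some settings. The others are the stalk protein Rplp0, Rpl27a, Rpl23, Rps6 and the highly expressed gene with the smallest difference (Rpl18). Capitals mark a TOP run.
Rpl39 (chrX:121195887-121195916, minus strand): cagcgtcttctaatcgcgttCTTCCggcct
Rps16 (chr1:92770638-92770667, plus strand): cagaccctggaaaatcggtcggggtggccc
Rpl27a (chr1:172974553-172974582, plus strand): cctcgcgagacttggtgggctcctccctct
Rpl23 (chr10:83272175-83272204, minus strand): cttgtactaacttcctttctgactctttcc
Rplp0 (chr12:46718381-46718410, minus strand): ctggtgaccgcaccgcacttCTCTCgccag
Rps6 (chr5:106420531-106420560, minus strand): ttcgtgacgcctcctaggcggtcggctgtg
Rpl18 (chr1:105325250-105325279, plus strand): gtctttctggacctggtctagcaggaggcg
Rpl39 and Rplp0 have the run at the annotated start, while Rps16, Rpl27a, Rpl23, Rps6 and Rpl18 do not. These are matches of letters at annotated starts, and no match says only that the letters are not at that position.

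A log scale was used for the deposited values, which were read as log2 although no base is given. They were made with the distribution free weighted method (DFW), which shrinks how far arrays lie apart in each probe set, so that a difference is not a log2 fold change. Among ribosomal proteins the absolute difference between diets had a median of 2.63e-06 and a highest value of 2.08e-05, whereas the largest difference of any probe set was 0.574 (Gpnmb). Values of single arrays are therefore given as the deposited value minus the control mean in units of 1e-06, called units here, and differences (HP minus control) also as the standardized difference, that is, in multiples of the pooled SD within groups. Tests were made with limma over all 31042 probe sets, and an adjusted p (Benjamini-Hochberg) under 0.05 was the threshold. Exact two-sided permutation tests over the 70 arrangements of the arrays cannot give a p below 0.029.

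Of the kidney genes looked up as a check of the tissue, 9 of 10 had a probe set, and the tubule genes Umod, Kap, Lrp2 and Slc34a1 (its higher probe set) reached percentiles of 99.6 to 100 among all mean levels, while Nphs1, a gene of the podocytes, was at 75.3 and 38. Array medians lay between 7.056220 and 7.056405. This range of 0.00018 is larger than the difference of any ribosomal protein, so that centring each array on its median moves every probe set (median standardized difference of all probe sets -0.94, against -0.21 as deposited). The median deviation of an array from the mean of all arrays varied by only 3.7e-07.

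Most ribosomal proteins were higher in HP rats in the deposited values and none were after median centring, and only Rpl39 and Rps16 passed the test. A positive difference was found in 48 of 57 probe sets, against 42.3% of all probe sets tested, but in 0 of 57 after centring each array on its median (2.72% of all probe sets). Array medians varied by 0.00018, more than any member differed, so this centring cannot show the direction of the members. With each array centred instead on its median deviation, a step chosen after seeing the data, 49 of 57 were positive (47.5% of all). The median standardized difference was 1.40 for the ribosomal proteins, against -0.21 for all probe sets (-0.91 for the large and -0.89 for the small subunit after median centring). Limma called 2 probe sets higher, Rpl39 and Rps16 (background 2.95% of all probe sets), and 0 lower (background 1.13%). At an unadjusted p under 0.05 limma had 23 higher (9.53% of all probe sets) and 1 lower (9.45%). Rank products called 0 in both directions (3.41% and 2.32% of all). They order probe sets by the size of the deposited difference, a size that DFW sets for each probe set. For members with differences this small, rank products therefore cannot decide whether the diets differed. All HP arrays lay above all control arrays in 17 of the 57 probe sets, against 7.09% of all probe sets, and below them in 0, against 5.81%.

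**Figure D1:**
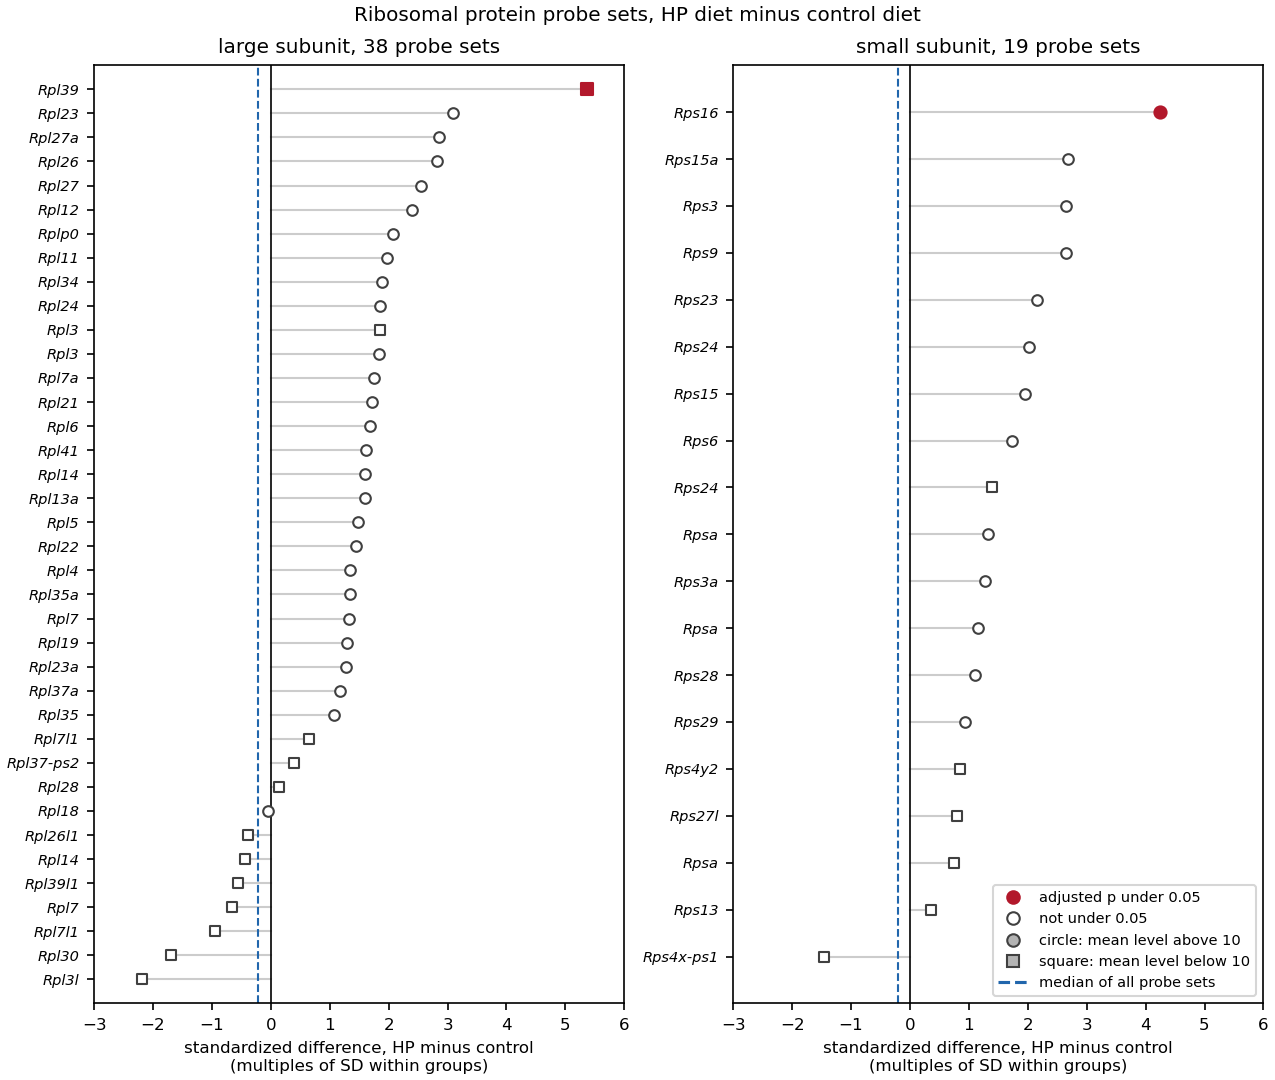
Standardized difference (HP minus control, in multiples of the pooled SD within groups) of the 38 large and 19 small subunit probe sets, where filled symbols passed the adjusted p of 0.05, circles have a mean level above 10, squares one below 10, and the dashed line is the median of all probe sets (-0.21). Only Rpl39 at 5.37 and Rps16 at 4.25 passed, and 48 of 57 points lie right of 0 in the deposited values (0 of 57 after median centring).

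Both subunits gave values in the same range. In the large subunit 1 of 38 probe sets was called higher, 30 had a positive difference and 10 were above control on every HP array, with a median standardized difference of 1.46 (quartiles 0.46 and 1.86). In the small subunit 1 of 19 was called higher, 18 had a positive difference and 7 were above control on every HP array, with a median of 1.32 (quartiles 0.89 and 2.08). Of all probe sets 2.95% were called higher, 42.3% had a positive difference and 7.09% were above control on every HP array. After median centring 0 probe sets of both subunits had a positive difference. The difference between the subunits was not tested, because members are not replicates.

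Rpl39, a very small protein that lines the tunnel through which the new chain leaves the large subunit, had the highest standardized difference of all members. Its probe set stood 6.70, 6.19, 7.70 and 4.40 units above the control mean in HP rats 1 to 4, against 1.26, -0.16, -0.27 and -0.83 units in control rats 1 to 4. All HP rats were well above all control rats, and rat 3 rather than rat 2 was the highest. The mean deposited value was 9.151237 in HP rats and 9.151230 in control rats, with SDs of 1.39 and 0.890 units (n = 4 each). Rpl39 rose by 6.25 units (SE 0.823, standardized difference 5.37, adjusted p = 0.015 by limma). The call was lost without HP replicate 1 (adjusted p = 0.053), control replicate 2 (0.051) or control replicate 3 (0.053), and after median centring the difference was negative (-0.84).

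Rps16, whose tail reaches the transfer RNA in the small subunit, was the other gene called. Its probe set stood at 20.54, 27.06, 15.53 and 12.95 units in HP rats 1 to 4, against -1.15, 1.02, -0.80 and 0.94 units in control rats. The lowest HP rat was far above the highest control rat, and HP rats varied more (SD 6.22 units, against 1.14 units in control rats, n = 4 each). Rps16 rose by 19 units (SE 3.16, standardized difference 4.25, adjusted p = 0.025 by limma). This call did not hold without HP replicate 1 (adjusted p = 0.07) or without control replicate 1 (0.068), 2 (0.065), 3 (0.076) or 4 (0.059), and median centring turned the difference negative (-0.66).

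Among the other large subunit proteins with a high moderated t, none passed limma's threshold. Rpl27a, a core protein of the large subunit, stood at 8.33, 14.17, 7.07 and 4.54 units in HP rats, against 0.08, -0.29, -1.21 and 1.43 units in control rats (standardized difference 2.85, adjusted p = 0.073). Rpl23, which lies on the face that meets the small subunit, stood at 2.25, 4.19, 2.60 and 1.42 units in HP rats, against 0.14, -0.15, -0.31 and 0.32 units in control rats (3.10, adjusted p = 0.075). In both, all HP rats were above all control rats and HP rat 2 was the highest. Rpl26, near the mouth of the exit tunnel, had 2.46, 3.23, 1.85 and 0.93 units in HP rats, against 0.27, -0.50, -0.23 and 0.44 units in control rats (2.82, adjusted p = 0.1). Rpl12, at the base of the stalk that binds elongation factors, had 21.22, 34.19, 18.72 and 6.35 units in HP rats, against 1.03, 0.29, -4.57 and 3.25 units in control rats (2.40, adjusted p = 0.11). Again no control rat reached the lowest HP rat, and for Rpl12 rat 4 was much nearer to control rats than the others were. Rpl27a passed without HP replicate 2 (standardized difference 4.47, adjusted p just under 0.05) and Rpl12 without HP replicate 4 (4.23, adjusted p = 0.047). After median centring the 4 differences were negative.

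In the small subunit the next 4 probe sets were those of Rps15a, Rps3, Rps9 and Rps23, and none passed the threshold. Rps3 and Rps9 sit where the messenger RNA enters the subunit. Rps3 stood at 13.04, 19.28, 7.44 and 6.01 units in HP rats, against 0.61, -0.56, -0.83 and 0.80 units in control rats (standardized difference 2.65, adjusted p = 0.088). Rps9 stood at 6.81, 15.30, 8.14 and 5.41 units in HP rats, against -1.92, -0.20, 2.46 and -0.36 units in control rats (2.65, adjusted p = 0.089). The groups did not overlap in either gene. Rps15a, which binds the ribosomal RNA, had 14.23, 19.56, 10.97 and 5.77 units in HP rats, against -1.03, -2.90, -0.86 and 4.80 units in control rats (2.68, adjusted p = 0.086). Rps23, at the centre where codon and anticodon are matched, had 5.14, 8.90, 2.85 and 2.20 units in HP rats, against -0.22, -0.70, 1.25 and -0.33 units in control rats (2.15, adjusted p = 0.15). In all 4 genes rat 2 was the highest and rat 4 the lowest of the HP rats, and median centring made the differences negative.

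**Figure D2:**
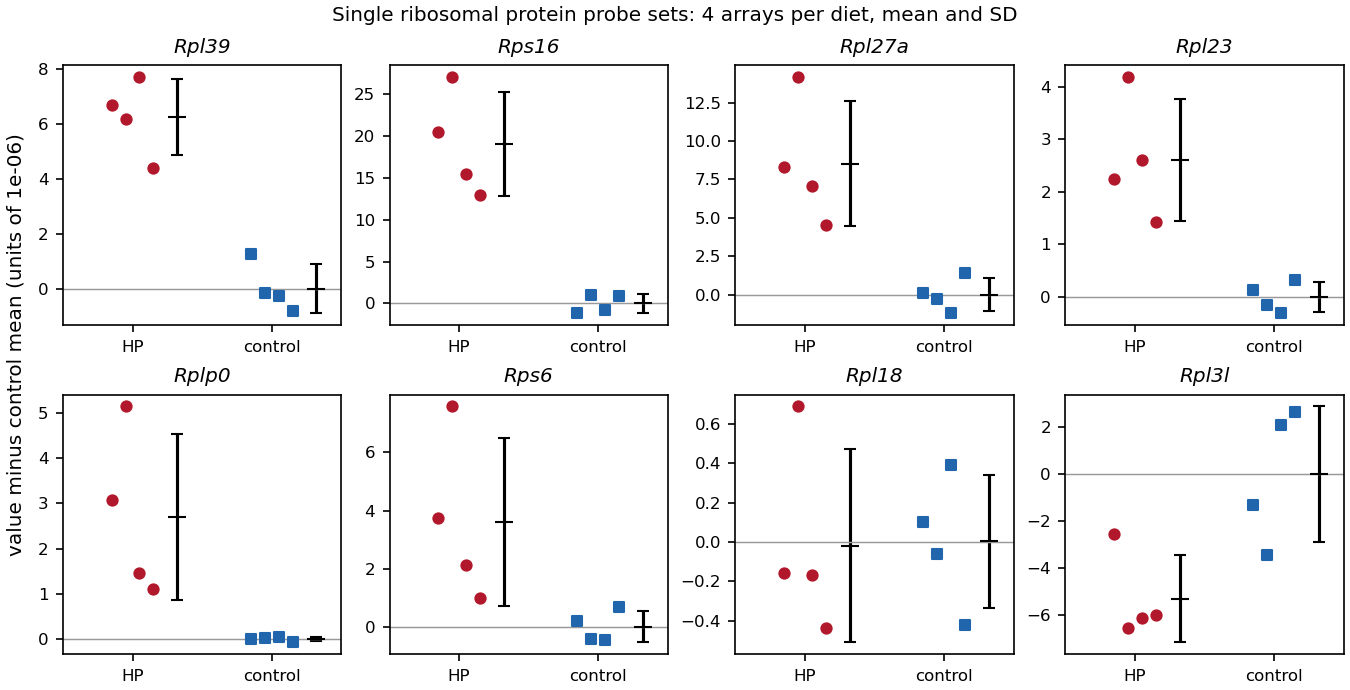
Deposited value minus control mean, in units of 1e-06, for 8 ribosomal protein probe sets, with each point 1 rat (circles HP, squares control, in the order of replicates 1 to 4) and the bar the mean and SD of 4 rats. HP rats lie above all control rats in the first 6 panels (as deposited; after median centring these differences are negative), the groups mix in Rpl18, and in Rpl3l 3 of 4 HP rats lie below all control rats.

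None of the proteins with known roles of their own passed the threshold, and their differences, too, were negative after median centring. Rplp0, the acidic protein that carries the stalk, had 3.08, 5.14, 1.47 and 1.10 units in HP rats, against 0.01, 0.03, 0.05 and -0.07 units in control rats. Control rats hardly varied (SD 0.0526 units, against 1.84 units in HP rats), and all HP rats were above them (standardized difference 2.07, adjusted p = 0.17). Rpl5 and Rpl11 form a particle with the 5S ribosomal RNA that can also bind Mdm2, the ubiquitin ligase of p53. Rpl11 stood at 4.52, 7.53, 1.08 and 2.57 units in HP rats, against 0.39, 0.12, 0.04 and -0.54 units in control rats (1.97, adjusted p = 0.18). Rpl5 stood at 3.30, 7.37, 1.55 and 0.70 units in HP rats, against 1.20, -0.04, -0.65 and -0.51 units in control rats (1.48, adjusted p = 0.3). The groups were apart for Rpl11 and overlapped for Rpl5 through HP rat 4.

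Rps6, the substrate of the S6 kinases downstream of mTOR, had 3.74, 7.58, 2.12 and 1.00 units in HP rats, against 0.19, -0.40, -0.45 and 0.67 units in control rats (standardized difference 1.74, adjusted p = 0.23). HP rats were all above control rats, but rat 4 only by a little. Rpl13a, which in human cells can leave the ribosome to silence inflammatory messenger RNAs, had 11.91, 9.16, 1.92 and 5.31 units in HP rats, against -0.67, -2.57, -3.26 and 6.49 units in control rats (1.60, adjusted p = 0.26). Here the groups overlapped through control rat 4, and HP rat 1 was the highest. Rpsa, a small subunit protein that also occurs as a laminin receptor at the cell surface, had 3 probe sets with standardized differences of 1.32, 1.15 and 0.75, all with overlapping groups.

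The paralogs whose symbols end in l or l1, and Rps4x-ps1, had standardized differences between -2.19 and 0.80. Rpl3l, a form of Rpl3 known from muscle, had the lowest standardized difference of all members. Its probe set stood at -2.54, -6.54, -6.13 and -6.00 units in HP rats, against -1.31, -3.44, 2.11 and 2.64 units in control rats (-2.19, adjusted p = 0.14, exact permutation p = 0.057). HP rat 1 lay within the control range and the other 3 HP rats below it. Rps4x-ps1 had a standardized difference of -1.46 (adjusted p = 0.47), Rpl39l1 one of -0.55 (0.74) and Rpl26l1 one of -0.38 (0.84). The 2 probe sets of Rpl7l1, a nucleolar relative of Rpl7, went apart at 0.65 and -0.94. Rps27l, a relative of Rps27 that p53 induces in human cells, was at 0.80 (adjusted p = 0.6), and the groups overlapped in every one of these probe sets.

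Some ribosomal protein genes had probe sets that differed from each other. Rpl7 had standardized differences of 1.32 and -0.66, and Rpl14 of 1.60 and -0.43, in both genes with the positive value at the probe set of higher level. The 2 probe sets of Rpl3 (1.83 and 1.85) and of Rps24 (2.02 and 1.40) had the same sign. Of the 57 probe sets, 6 have suffixes that mark probes able to match several transcripts, and processed pseudogenes of ribosomal proteins may be read along with the genes. Rpl30 (-1.69, adjusted p = 0.42), Rpl18 (-0.05, adjusted p = 0.99) and Rps13 (0.35, adjusted p = 0.96) were the other members among the 10 with the lowest moderated t.

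Standardized differences were higher at high levels. Mean levels of the members left a gap between 9.55 and 11.21, and a split at 10, chosen after the values were seen, put 39 probe sets (38 genes) above and 18 below. Above 10, 38 of 39 had a positive difference as deposited (0 after median centring), 16 were above control on every HP array (background 7.09%), and the median standardized difference was 1.72. Below 10, 10 of 18 had a positive difference, 1 (Rpl39) was above control on every HP array, and the median was 0.24. Those below 10 included all probe sets of Rpl3l, Rpl7l1, Rpl26l1, Rpl39l1, Rps27l, Rps4y2, Rpl37-ps2 and Rps4x-ps1. The part of these paralogs and pseudogene symbols in the lower median was not tested. The other 1841 probe sets with a level above 10 had a median of -0.34, with 41.1% positive and 11.2% above control on every HP array. The subunits had medians of 1.66 (large, 26 probe sets) and 1.95 (small, 13 probe sets) above 10. A level also depends on the probes of a probe set, so it is not a measure of how much of each messenger RNA was present.

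**Figure D3:**
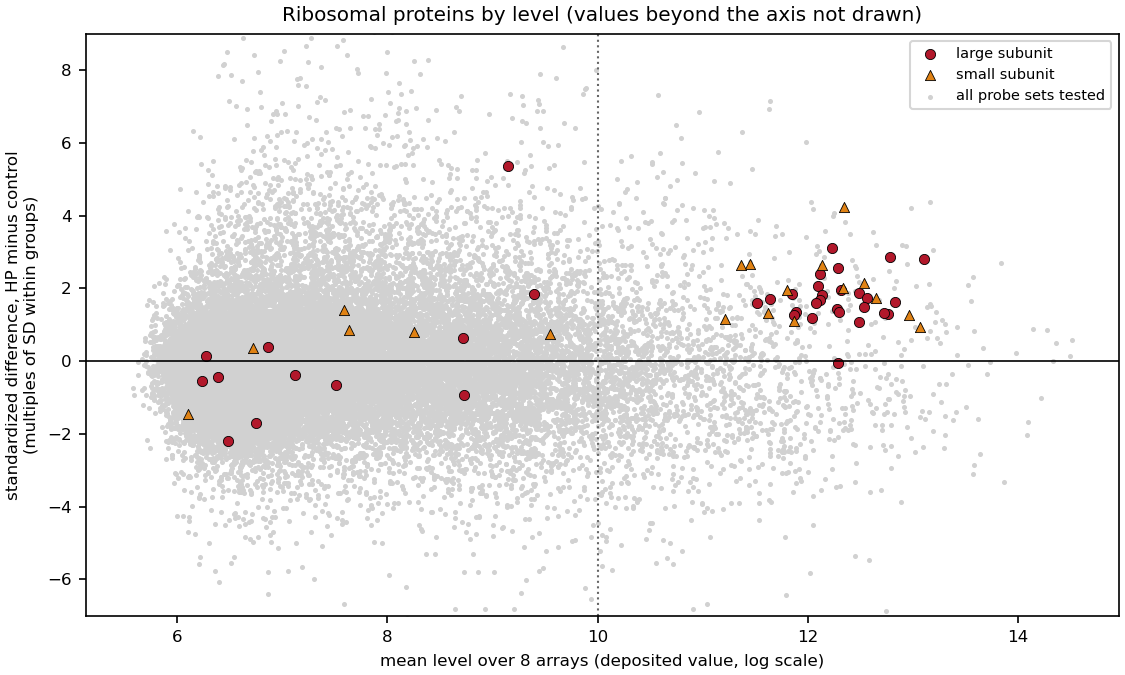
Mean level over the 8 arrays (deposited value, log scale) against standardized difference (HP minus control), with circles for large subunit, triangles for small subunit and gray points for all probe sets tested (44 lie beyond the axis), and a dotted line at the split of 10. The 39 members right of the line have a median of 1.72 and only Rpl18 lies just below 0, while the 18 on the left have a median of 0.24 (as deposited; all members are negative after median centring).

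HP rat 2 was the highest for nearly all of the highly expressed ribosomal proteins. Averaged over the 39 probe sets above level 10, HP rats 1 to 4 stood 2.05, 3.41, 1.12 and 0.69 SDs above the control mean, against 0.11, -0.19, -0.23 and 0.31 SDs in control rats 1 to 4. Rat 2 was the highest HP rat in 37 of these 39 probe sets, against 29.9% of all probe sets, and rat 4 in 0. The large subunit had 1.92, 3.31, 1.09 and 0.61 SDs in HP rats and the small subunit 2.31, 3.63, 1.17 and 0.86 SDs, so both followed the same rats. The SD between HP rats was larger than that between control rats in 36 of 39, with a median ratio of 2.25 (1.58 without HP replicate 2), against 1.01 over all probe sets. In the 18 members below level 10 the ratio was 0.744.

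Without HP replicate 2 all 57 members had a median standardized difference of 1.20, and 48 had a positive difference (background 42.2%). As many as with all arrays, 17, had every HP array above every control array (background 8.17%). Limma called 3 higher, Rpl39, Rps16 and, just under the threshold, Rpl27a (background 1.69%). Leaving out each of the 8 arrays in turn gave 0 to 3 probe sets called higher, with 0 after removal of HP replicate 1, control replicate 2 or control replicate 3. Without HP replicate 4, the rat closest to control, the median was 2.04 and 28 members had every HP array above every control array (background 8.94%).

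**Figure D4:**
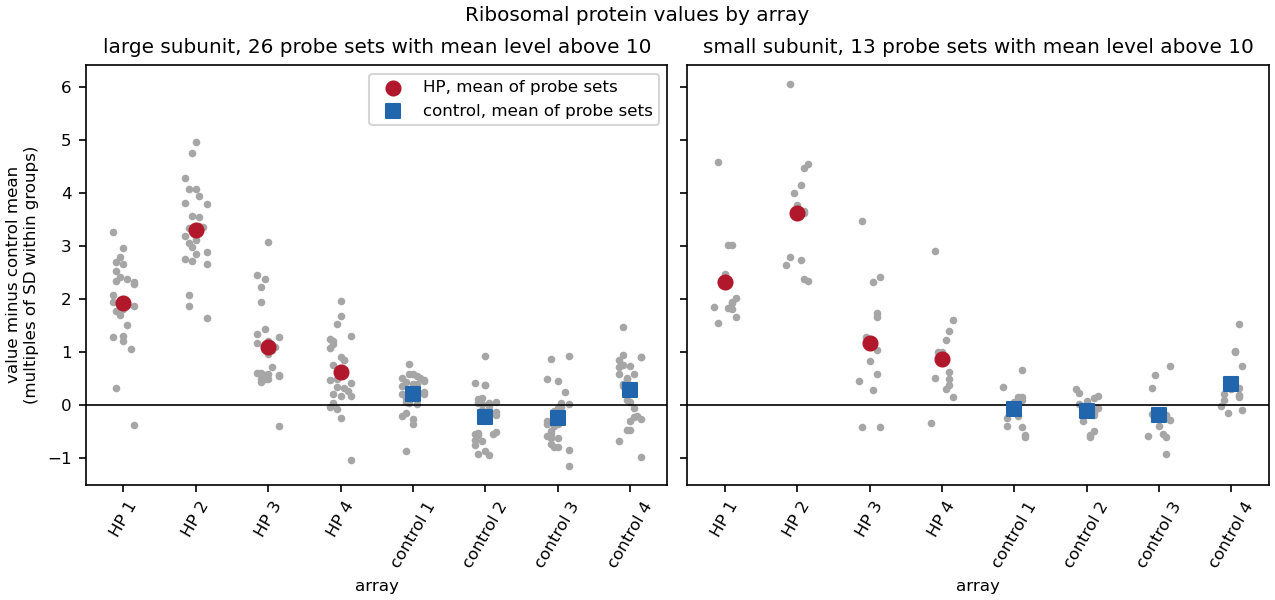
Value of each array minus the control mean, in multiples of the SD within groups, for the 26 large and 13 small subunit probe sets with a mean level above 10, where gray points are probe sets and large symbols their mean (circles HP, squares control). HP rat 2 is the highest (3.31 and 3.63 SDs), HP rat 4 is the nearest to control (0.61 and 0.86 SDs), and the control means stay within -0.25 and 0.40 SDs.

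Markers of macrophages were also highest in HP rat 2. Of 16 macrophage probe sets 12 were called higher (2.95% of all probe sets) and 0 lower (1.13% of all). At an unadjusted p under 0.05 in limma 1 was lower, and 0 were lower by rank products. The mean of the 16 stood 3.61, 5.20, 3.42 and 2.83 SDs above the control mean in HP rats 1 to 4, against 0.41, -0.07, -0.43 and 0.09 SDs in control rats. Rat 2 was the highest HP rat in 15 of these 16, as it was for the ribosomal proteins, and rat 4 had the lowest mean in both. Fibroblast markers had 7 of 11 called higher (background 2.95%) and HP means between 3.94 and 4.45 SDs (control -0.86 to 0.44), without this order of rats. For T and B cells only 1 of 10 was called higher (background 2.95%), Cd3g. This call was lost without HP replicate 1, 2 or 4 or control replicate 1, 2 or 3 (adjusted p up to 0.075 by limma). Rat 2 had the highest mean of the T and B cell markers (2.02 SDs). Proliferation markers had 0 of 9 called (0 also at an unadjusted p under 0.05 in limma, 2 higher by rank products) and a median of 1.05. The kidney genes of the tissue check had 2 of 11 probe sets with a positive difference (42.3% of all). Their median was -1.42 (-0.97 after median centring). Limma called 0 of these 11 (4 lower unadjusted, background 9.45%), and rank products called 1 lower (background 2.32%). After median centring limma called 5 of 16 macrophage and 1 of 11 fibroblast probe sets higher. The medians were then 3.61 for macrophage and 3.80 for fibroblast markers, but -0.84 for T and B cells and -0.49 for proliferation markers. The part of these cells in the values of the ribosomal proteins was not tested, and in kidney tissue a change in the number of cells and in the RNA per cell cannot be told apart.

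RNA quality was read from the Affymetrix control probe sets. The 3′ probe set of beta-actin stood at 2.92, 6.07, 4.86 and 5.51 units in HP rats, against -2.58, -1.44, 2.65 and 1.38 units in control rats, so all HP rats were above all control rats (exact permutation p = 0.029, the smallest possible here). The groups overlapped at its 5′ and middle probe sets. The 3′ minus 5′ difference of beta-actin was 4.14, 14.17, -0.64 and 5.40 units from the control mean in HP rats, against -1.59, 4.80, -5.90 and 2.68 units in control rats, so HP rat 2 was the highest and the groups overlapped. For GAPDH, HP rats lay between -0.71 and 0.67 units and control rats between -0.33 and 0.62. The 5S ribosomal RNA control had overlapping groups. The part of RNA quality in the ribosomal protein values was not tested.

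Of the 30 probe sets with several ribosomal protein symbols, which are not among the members, limma called 1 higher (background 2.95%). Rank products also called 1 higher (background 3.41%). All 30 had a positive difference as deposited (0 after median centring), in 17 all HP arrays were above all control arrays (background 7.09%), and the median standardized difference was 1.91. Rack1, a scaffold protein on the small subunit, had 2.18 (-0.82 after median centring, adjusted p = 0.14 as deposited, groups apart). HP rat 2 was the highest in 25 of the 30 and in Rack1.

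The genes that make and use ribosomes had medians near that of all probe sets (-0.21). Of all probe sets, limma called 2.95% higher and 1.13% lower (9.53% and 9.45% unadjusted). For rank products the shares were 3.41% higher and 2.32% lower. For rRNA transcription, limma called 0 of 22 probe sets (0 also at an unadjusted p under 0.05, and 0 by rank products), with a median of 0.24. Ribosome biogenesis had 0 of 97 called (5 higher and 6 lower unadjusted, 2 lower by rank products) and a median of -0.12. Its members with the smallest p were Brix1 (2.88), Noc4l (-2.73), Ddx52 (2.55) and Gnl3 (-3.10), so they were found on both sides. By limma, the other probe set had an adjusted p of 0.91 for Brix1 and of 0.26 for Ddx52. Elongation and termination factors had 0 of 22 called (2 higher and 1 lower unadjusted, 0 by rank products) and a median of 0.18. Eef1g, a subunit of elongation factor 1, had the smallest p (2.96, adjusted p = 0.067 by limma). The other probe set of Eef1g was at -0.56 (adjusted p = 0.73).

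The 54 probe sets of initiation factors had a median of -0.06. Limma called 0 higher (3 unadjusted, 0 by rank products) and 2 lower (9 unadjusted, 4 by rank products). The background was 1.13% of all probe sets called lower (9.45% unadjusted, 2.32% by rank products). For calls of higher it was 2.95% (9.53% unadjusted, 3.41% by rank products). Eif4g1, the scaffold of the cap-binding complex, fell at 1 of 4 probe sets (standardized difference -4.07, adjusted p = 0.027), while the others had adjusted p-values of 0.19, 0.99 and 0.6. Eif3j, a loosely bound subunit of initiation factor 3, fell at 1 of 2 probe sets (-4.09, adjusted p = 0.033, and 0.26 for the other). Each of these calls was lost when any of 7 of the 8 arrays was left out (adjusted p up to 0.075 for Eif4g1 and 0.093 for Eif3j), and held without HP replicate 1 for Eif3j and without control replicate 4 for Eif4g1. The 36 probe sets of regulators of TOP messenger RNAs had a median of -0.27. Among them, limma called 0 higher (2 unadjusted, 2 by rank products) and 1 lower (3 unadjusted, 0 by rank products). This was Mtor, the kinase that drives the translation of ribosomal protein messenger RNAs (-4.69, adjusted p = 0.019), whose call was lost without HP replicate 1, HP replicate 2 or control replicate 2 (adjusted p up to 0.061). After median centring, which put the median of all probe sets at -0.94, none of the 3 genes was called (-3.09 for Eif4g1 and -1.13 for Mtor).

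Mitochondrial ribosomal proteins, which form the separate ribosome of mitochondria, lay on the other side. Of 97 probe sets 13 had a positive difference, with a median of -1.10. Limma called 0 higher (0 unadjusted, 0 by rank products) and 4 lower (24 unadjusted, 0 by rank products). The background was 1.13% of all probe sets called lower (9.45% unadjusted, 2.32% by rank products). For calls of higher it was 2.95% (9.53% unadjusted, 3.41% by rank products). Mrpl47 had the largest fall (-6.36, adjusted p = 0.0082), followed by Mrpl49 (-4.60, 0.021, with 0.68 for its other probe set), Mrpl2 (-3.89, 0.033) and Mrps7 (-3.85, 0.039). Leaving out 1 array kept the call of Mrpl47 in all 8 cases (adjusted p 0.017 to 0.033) and lost that of Mrpl49 in 7 (all but HP replicate 1, up to 0.058), of Mrpl2 in 7 (all but control replicate 4, up to 0.087) and of Mrps7 in 8 (up to 0.11). The mean of the 97 probe sets stood at -1.42, -0.75, -1.47 and -1.38 SDs in HP rats 1 to 4, against 0.08, -0.30, 0.42 and -0.20 SDs in control rats, so rat 2 was the nearest to control. The respiratory chain and ATP synthase had 7 of 96 probe sets with a positive difference and a median of -1.33. Of these 96, limma called 0 higher (1 unadjusted, 0 by rank products) and 1 lower (23 unadjusted, 0 by rank products). This was Atp5me (-4.41, adjusted p = 0.023, with 0.24 for its other probe set). The call of Atp5me was lost without HP replicate 2, 3 or 4 or control replicate 3 (up to 0.073). After median centring the cytosolic and mitochondrial ribosomal proteins and the respiratory chain had medians of -0.91, -0.96 and -0.95, against -0.94 for all probe sets, and 0 probe sets of the mitochondrial lists were called lower. With each array centred on its median deviation instead, the 3 medians were 1.55, -0.82 and -1.05. The difference between these groups was not tested.

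**Figure D5:**
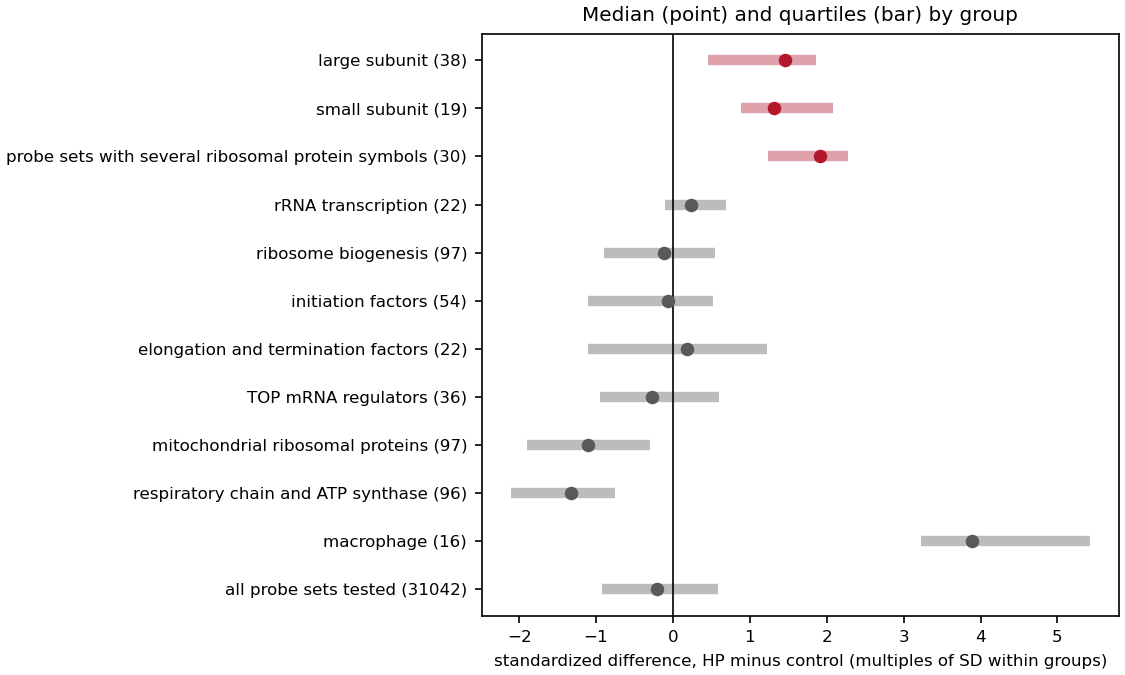
Median (point) and quartiles (bar) of the standardized difference (HP minus control, in multiples of the SD within groups) for each group of probe sets, whose number is in brackets. The subunits have medians of 1.46 and 1.32, the mitochondrial ribosomal proteins -1.10, the respiratory chain -1.33, macrophage markers 3.89 and all probe sets -0.21 (as deposited; after median centring the plotted medians lie between -0.96 and -0.89, except that of macrophage markers at 3.61).

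Standardized differences were also set beside the TOP run. Among the 34 matched genes with a level above 10, the 10 with a TOP run at the annotated start had a median standardized difference of 1.39 and the 24 without it 1.85. With a run of at least 8 pyrimidines near the start the median was 1.72 (23 genes), and without it 1.83 (11 genes). These medians are descriptions, and the start sites are those of 1 promoter entry per gene.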

How the data were processed

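Total RNA of 8 left kidneys was hybridized to Affymetrix whole-genome rat arrays. The authors summarized the probes of all arrays together with DFW in R, and the deposited values, on a log scale taken as log2, were used unchanged. The CEL files were not used here. Gene symbols were those of the platform annotation: 20832 probe sets had 1 symbol, 436 several and 9831 none. The 57 Affymetrix controls were left out of the tests. Limma 3.58.1 in R 4.3.3 (lmFit and eBayes, prior degrees of freedom 0.772, no covariate) was fitted to 31042 probe sets, with Benjamini-Hochberg adjustment over all of them. Rank products used 16 pairs of arrays and 1000 permutations. The other steps ran in Python 3.11.15 (matplotlib 3.10.9, scipy 1.17.1, numpy 2.4.6 and pandas 2.3.3). The tests were checked on simulated data.

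Precision is limited by the 4 arrays of each diet. Titles number the rats as biological replicates, and the p-values measure the spread between these selected rats. Members and lists were chosen with earlier results of these data known. Named were the 10 members with the highest and the 10 with the lowest moderated t, all probe sets of Rplp0, Rpsa, Rpl5, Rpl11, Rps6, Rps3 and Rpl13a, the paralogs, and up to 4 members of each other list with the smallest p, as well as Rps4x-ps1 by the first rule. The other Rpl7, Rpl14, Rpl3 and Rps24 probe sets were named after their values were seen, to set the probe sets of 1 gene side by side. The titles name no pairing of rats by replicate number. Correlations of same-numbered rats lay between 0.00 and 0.12. Rats with unlike numbers were not compared, so these values cannot show whether the numbers pair the rats. The alternatives were other moderation, array weights, other normalizations, a filter on the lowest 25%, 1 probe set per gene, a replicate block, exact permutation, rank products and each array left out. Centring on the median deviation was chosen after seeing the data. Promoters came from RefSeq, and where a gene had several entries the first was used. Protein sequences were not used here.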

Additional observations from a re-analysis of the deposited data

Results flagged for a closer look

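Of 60 groups of 4 arrays (30 named probe sets, 2 diets), 2 held an array far from the other 3, where chance gives about 1 in 20. In HP rats, Rpl3l was at -2.54 units in replicate 1, while the other HP rats lay between -6.54 and -6.00 units (gap over range 0.866, critical value 0.829). In control rats, the Rpsa probe set with the highest level was at 1.62 units in replicate 4, while the others lay between -0.65 and -0.44 units (gap over range 0.912). Without HP replicate 1 and the other arrays in turn, the standardized difference of Rpl3l stayed between -3.26 and -1.90 and that of this Rpsa probe set between 1.02 and 2.38, and neither passed limma's threshold (adjusted p between 0.098 and 0.29 for Rpl3l, and between 0.2 and 0.6 for Rpsa).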

How the results depend on the processing

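Limma with trend and robust moderation, without moderation, with array weights, without the lowest 25% of probe sets, with 1 probe set per gene and after deviation centring called Rpl39 and Rps16 higher and 0 lower, as in the report. Deviation centring turned only Rpl18 among the named probe sets (0.32). Median centring called 0 higher, left 0 of 57 members and 0 of the 39 with a level above 10 with a positive difference, and gave medians of -0.91 (large) and -0.89 (small). It subtracts array medians that vary by 0.00018, more than any member differed. The named probe sets it turned were Rpl39 (-0.84), Rps16 (-0.66), Rpl27a (-0.82), Rpl23 (-0.90), Rps15a (-0.76), Rps3 (-0.78), Rps9 (-0.84), Rpl26 (-0.91), Rpl12 (-0.65), Rps23 (-0.88), Rplp0 (-0.90), Rpl11 (-0.89), Rps6 (-0.90), Rpl13a (-0.81), Rpl5 (-0.90), Rpsa (-0.92, -0.91 and -0.92), Rps27l (-0.92), Rpl7l1 (-0.93) and Rps13 (-0.94). Quantile normalization left 49 of 57 members with no spread within groups, so no medians are given for it. In the rest it called 0 higher and 3 lower (1 large, 2 small, background 23.1%), Rps13 (-12.38), 1 probe set of Rps24 (-4.45) and 1 of Rpl7 (-3.54), and Rpl39l1, which was not called, turned to 0.53. Rank products, which follow the size of differences shrunk by DFW, called 0 of both subunits higher. The replicate block also called 0 higher (adjusted p = 0.058 for Rpl39 and 0.082 for Rps16). The titles name no pairing by replicate number, and whether the numbers pair the rats was not settled. An exact permutation test adjusted over all probe sets cannot go below 0.22. Leaving out 1 array gave 0 to 3 members called higher (large 0 to 2, small 0 to 1) and 0 lower, 47 to 50 with a positive difference, and medians of 1.31 to 2.04 (large) and 1.02 to 1.77 (small). Of the named probe sets, Rpl18 turned in sign most often (-0.92 to 0.29), and Rps13 (-0.17 to 0.68), Rpl26l1 (-0.79 to 0.09), Rpl14 (-0.90 to 0.17) and Rpl39l1 (-0.97 to 0.31) once each, none of them called.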
